A study of Mus musculus with 7 samples.

Results

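The proteasome genes of fetal muscle fibers were examined in 7 libraries. They comprise the 50 of 31531 genes in the deposited table whose symbol is Psm, a letter from a to g and a number, without the pseudogene names that carry -ps, of which there were 3. Of the 50, 19 belong to the core particle (Psma and Psmb), 26 carry a name of the regulatory particle and its activators (Psmc, Psmd and Psme), and 5 encode an inhibitor and core assembly factors (Psmf1 and Psmg1 to Psmg4). A pair of genes matched by name only. Psmc3ip encodes a protein of meiotic recombination, and Psme2b is a copy of Psme2. RNA was measured in muscle fibers freed from the epaxial (back) muscles of C57BL/6 fetuses at E17.5, with 1 library from each of 4 wildtype (WT) and 3 dyW/dyW (dyW) fetuses. The dyW allele disrupts Lama2, the gene of the laminin-α2 chain, in every cell of the fetus, and no other allele or treatment is named for either group. Fibers were freed by enzymatic digestion and collected from a strainer, which lets single cells pass, and markers of other cells were measured in each library. In bulk libraries such as these, fewer cells of a type and less RNA per cell cannot be told apart.

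The proteasome is the barrel-shaped protease that degrades ubiquitin-tagged proteins in every cell. Its core particle has outer rings of α subunits, which gate the channel, and inner rings of β subunits, of which Psmb5, Psmb6 and Psmb7 cut the protein chain. A regulatory particle of ATPases (Psmc) and non-ATPases (Psmd) binds the tagged protein, removes the tag and unfolds the chain. The subunits are made in fixed proportions, and their genes are known to be transcribed together under the factor Nfe2l1. In muscle, the ubiquitin-proteasome system is known for the breakdown of myofibrillar proteins, with Fbxo32 and Trim63 as the ubiquitin ligases of atrophy. In these data, 31 genes are constitutive subunits (the 7 α, 7 β, 6 ATPase and 11 non-ATPase genes of the standard proteasome), and 5 core genes are restricted to certain tissues or conditions.

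The reads counted on genes, recovered from the steps between the deposited values, ranged from 470804 to 2220813 in WT and from 3663905 to 18297106 in dyW. A normalized count of 1 read was therefore worth 2.05 to 5.33 in WT and 0.0974 to 0.488 in dyW. The Lama2 level can check the genotype labels only weakly. The WT reads of Lama2 were 1.19 times the background level described below over all annotated exons, and 2.20 times over the canonical transcript. Subtraction of that level, which is 0 in dyW1 and dyW2, turned its log2 fold change from −2.58 to 0.97. Lama2 had normalized counts of 90.6, 111, 105 and 107 in WT1 to WT4, against 4.29 in dyW1, 6.07 in dyW2 and 140 in dyW3. Lama2 in the library labelled dyW3 was thus above every WT library. The mean over the genes behind the background level was also high there, at 14.4 reads per kb against 1.36 to 2.78 in WT. These reads therefore do not settle the genotype of dyW3. Values without dyW3 stand beside most of the medians and named genes. The summed normalized counts of 12 myofiber markers were 2682, 19219, 70220 and 15119 in WT1 to WT4 and 65.8, 8356 and 4825 in dyW1 to dyW3. Only 6 of the 12 myofiber markers had a read in dyW1, where Ckm, Myh3, Myh8, Actn2, Tnnc2 and Des were at 0, so values without that library are also given where it decides a result. The summed level of 8 fibroblast markers was 5944 to 15262 in WT and 26304 to 33524 in dyW, without overlap. Gene by gene, Col1a2 and Pdgfra were higher in every dyW library than in any WT library and the other 6 overlapped. The dyW1 sum was carried by Col1a1 (8467), Col1a2 (12046) and Fn1 (4353), while Col3a1 was at 232 there against 581 to 4129 in WT.

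**Figure D1:**
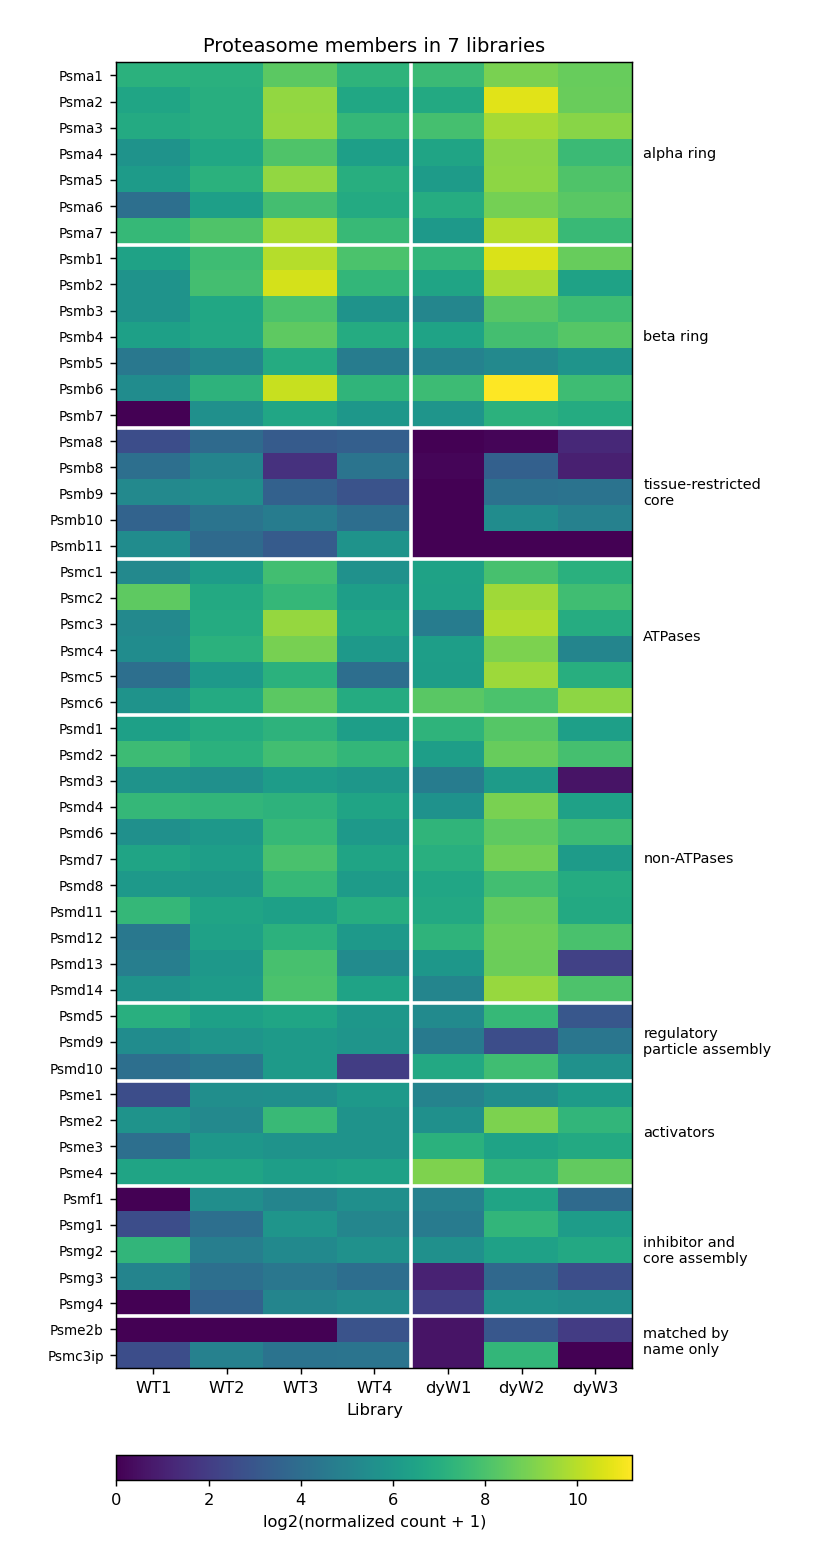
Level of each of the 50 proteasome genes (rows, grouped by role) in each library (columns), as log2(normalized count + 1) on a color scale. The constitutive rows are brightest in WT3 and dyW2, and Psmb11 is at 0 in all 3 dyW libraries.

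The constitutive subunits differed widely between fetuses of the same genotype. Their normalized counts summed to 2522, 3460, 12121 and 3118 in WT1 to WT4 and to 3273, 18678 and 6380 in dyW1 to dyW3. WT3 and dyW2 stood high in their groups, and WT and dyW overlapped, with means of 5305 ± 4560 (SD, n = 4) and 9444 ± 8146 (SD, n = 3). Of the 31 subunits, 28 had their highest WT value in WT3, 28 had their highest dyW value in dyW2, and 25 were highest of all 7 libraries in dyW2. WT1 held the lowest WT value of 21 subunits and dyW1 the lowest dyW value of 24. For comparison, their median log2 fold change between genotypes was 0.68. Within genotypes, the highest library of a group exceeded the lowest by a median of 5.48-fold in WT and 6.60-fold in dyW over the 31 subunits. WT3 and dyW2 were also the libraries with the highest sums of both myofiber and fibroblast markers in their groups, and WT1 and dyW1 those with the lowest. The fibroblast sums were 5944, 9624, 15262 and 8200 in WT1 to WT4 and 26304, 33524 and 28264 in dyW1 to dyW3. The part of either kind of RNA in the proteasome levels was not tested. The median log2 fold change of the 31 subunits was 1.29 without dyW1, 0.08 without dyW2 and 0.82 without dyW3, and 0.22 with quantile normalization. Without dyW2, 16 of the 31 were positive.

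Groups were compared with limma on log2(normalized count + 1) for the 25791 genes whose mean reached 5 normalized counts, with Benjamini-Hochberg adjustment over all of them. A gene is termed called at an adjusted p under 0.01 with an absolute log2 fold change over 1.5. Of the 50 proteasome genes, 49 were tested, and Psme2b was too low. Called lower in dyW was 1 member, Psmb11, where 18.7% of all genes tested were called lower. Called higher were 0 members by limma, where 0.0659% of all genes were. At an unadjusted p under 0.05, 4 members were lower and 4 were higher, against 41.5% and 2.81% of all genes. Voom on the recovered reads, another limma method, called 1 lower and 0 higher, against 23.6% and 0.0194%. Without dyW3, 2 members were called lower (Psmb11 and Psma8, against 25.8% of all genes) and 0 higher (0.0809%). With the adjusted p under 0.05 instead, 2 members were lower (Psmb11 and Psma8, against 29.6% of all genes) and 1 was higher (Psme4, against 1.0%). Fitted with the 6111 genes whose mean reached 50, limma called 0 genes in either direction, 0.0491% were lower at an adjusted p under 0.05, and of the 36 members in that fit 0 were called, with 0 lower and 6 higher at an unadjusted p under 0.05 (8.77% and 11.7% of the 6111 genes).

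The median log2 fold change was 0.60 over the 49 members and −1.99 over all genes tested. The latter was −2.54 without dyW3, −3.26 and −0.80 with pseudocounts of 0.1 and 10, 0.06 with quantile normalization and 0.28 after subtraction of the background level described below, while the members' median stayed between 0.47 and 1.17 under these scalings and pseudocounts. Positive values were found for 34 of the 49 members and for 20.4% of all genes. Among the 6111 genes whose mean reached 50, the median was 0.20 and 55.7% were positive, and among the 36 members above that level the median was 0.86 and 30 were positive. The members' median was 1.15 without dyW1, 0.08 without dyW2 and 0.77 without dyW3, so it rested largely on dyW2. Scaling all libraries to the same total moved the median of all genes from −1.99 to −1.24 and that of the members from 0.60 to 1.74. On that scale 11 members were higher and 1 lower at an adjusted p under 0.05, against 4.85% and 20.7% of all genes, and 0 were called at 0.01 in either direction.

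**Figure D2:**
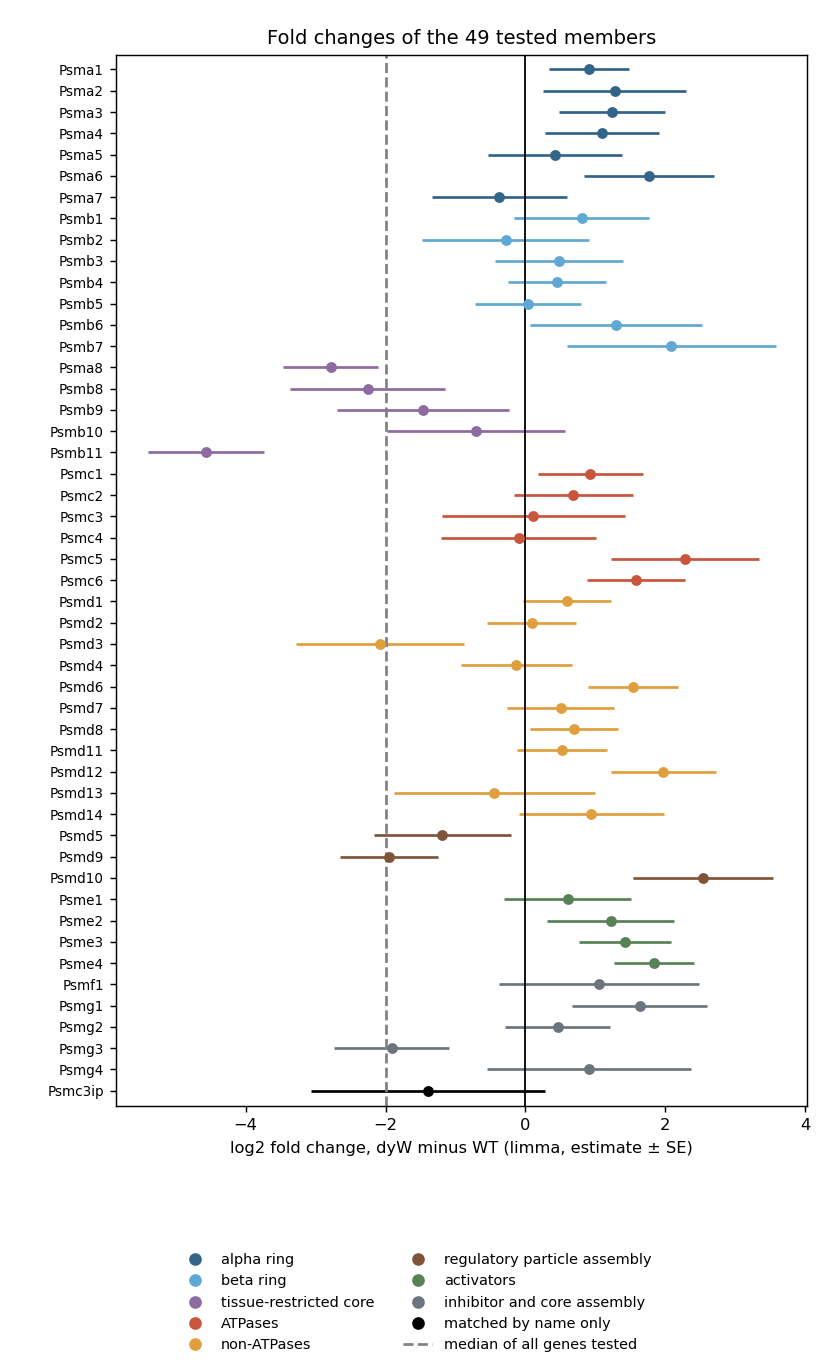
Log2 fold change (dyW minus WT, limma on log2(normalized count + 1)) of the 49 tested members as points with standard errors, colored by role. The solid line marks 0 and the dashed line the median of all genes tested, −1.99. The constitutive subunits lie mostly right of 0, with standard errors of 0.58 to 1.49, and the 5 tissue-restricted core genes lie left of 0.

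Among the α subunits, which form the gate of the core, 6 of 7 had a positive log2 fold change and 0 were called. Their median was 1.10, and 1.74 without dyW1, 0.38 without dyW2 and 1.10 without dyW3. Psma6 was the highest of them. Its normalized counts were 16, 78.2, 228 and 113 in WT1 to WT4 and 121, 458 and 322 in dyW1 to dyW3. WT3 overlapped the dyW values. The difference was 1.77 ± 0.93 on the log2 scale (SE), with an adjusted p of 0.175 (limma), and 1.04 without WT1, where it had 3 reads, 2.32 without dyW1 and 1.62 without dyW3. Psma7 was the α subunit with a negative value, −0.37, at 65.7 normalized counts in dyW1, 994 in dyW2 and 189 in dyW3, with 181 to 892 in WT. That value was 0.53 without dyW1, −1.42 without dyW2 and −0.23 without dyW3.

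The β subunits hold the proteolytic sites. Here too 6 of 7 had a positive log2 fold change, with a median of 0.48, and 0 were called. The median was 1.43 without dyW1, 0.08 without dyW2 and 0.28 without dyW3. Psmb5, with the chymotrypsin-like activity, had normalized counts of 21.3, 35.1, 117 and 25.2 in WT and 30.3, 37.4 and 55.2 in dyW. WT3 stood above every dyW library. The difference, 0.04 ± 0.75 on the log2 scale (SE, adjusted p = 0.975, limma), was far under its error, and −0.19 without dyW3. Psmb6, with the caspase-like activity, had 42.6, 148, 1227 and 157 in WT and 203, 2336 and 210 in dyW. WT3 and dyW2 stood far above the rest of their groups, and the log2 fold change of 1.30 ± 1.23 (SE, adjusted p = 0.444, limma) was close to its error. It was 0.14 without dyW2, 1.87 without dyW3, 0.60 without WT1 and 2.20 without WT3. Psmb7, with the trypsin-like activity, had 0, 48.5, 96.4 and 59.8 in WT and 55.6, 146 and 116 in dyW. The 0 stood in WT1, the shallowest library, where it allows up to 3 reads, or 16 normalized counts. Psmb7 had the largest log2 fold change of the core, 2.09 ± 1.49 (SE, adjusted p = 0.311, limma), and this fell to 0.58 without WT1 and was 1.97 without dyW3.

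The 5 tissue-restricted core genes had negative log2 fold changes with all libraries, with a median of −2.25, and −2.19 without dyW3, but 4 of 5 were positive with quantile normalization, where the median was 0.75. Their WT reads were 0.149 to 2.23 times the level of genes that muscle is not known to use. This level, here the receptor level, was taken from 1207 odorant and vomeronasal receptor genes, whose median was 0.632 to 2.48 reads per kb of exon in WT, 0 in dyW1 and dyW2 and 1.07 in dyW3. The mean over these genes was 1.36 to 2.78 reads per kb in WT, 2.03 in dyW1, 0.187 in dyW2 and 14.4 in dyW3, so in dyW1 and dyW3 it lay far above the median, which is the level used here. With a median of 0 in dyW1 and dyW2, subtraction of this level takes reads from WT and dyW3 only. It thereby tends to raise log2 fold changes, so a sign that turns positive after it does not show a direction. Constitutive subunits had from 2.07 to 48.2 times the reads that this level gives for their exon length in the 4 WT libraries together, and 0 of 31 were under 2 times. Of the 18 other tested members, 14 were under 2 times. Over the canonical transcript, only Psma8, Psmb8, Psmb11 and Psmf1 of those 14 were under 2 times, at 1.13, 1.92, 1.19 and 1.86.

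**Figure D3:**
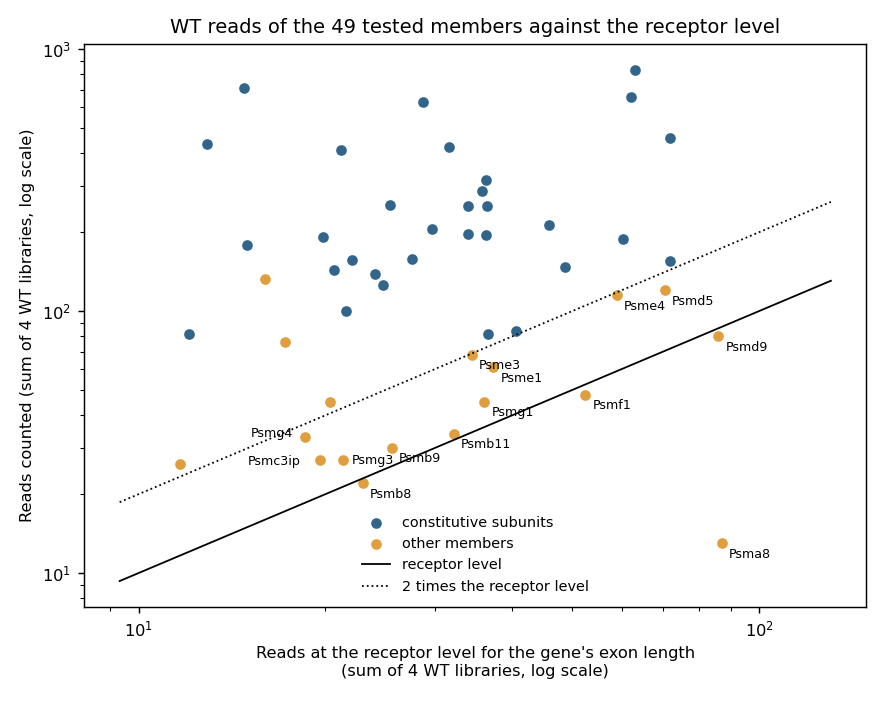
Reads counted in the 4 WT libraries together (vertical, log scale) against the reads that the receptor level gives for the exon length of the gene (horizontal, log scale), for the 49 tested members. The exon length is that of all annotated exons, which exceeds the canonical transcript for most members. All constitutive subunits lie above the dotted line at 2 times that level, and 14 of 18 other members lie under it.

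Psmb11 encodes the β subunit of the thymus proteasome, known from cortical epithelial cells of the thymus. It had normalized counts of 42.6, 13.5, 8.21 and 53.5 in WT1 to WT4, from 8, 5, 4 and 17 reads. In dyW1, dyW2 and dyW3 it had no read, although these libraries were deeper. Every WT library was above every dyW library, as for 31.5% of all genes tested. The log2 fold change was −4.57 ± 0.83 (SE, adjusted p = 0.00449, limma), the mean of WT was at least 41.4-fold higher than the floor of 3 reads per dyW library (at least 87.7-fold without dyW3), and the exact two-sided permutation p was 0.0571, the smallest that 7 libraries allow. The 34 WT reads were 1.06 times the receptor level. Subtracting that level from each library left a log2 fold change of −2.38 with an adjusted p of 0.43 (limma), and the adjusted p over all alternatives was 7.5e-04 to 0.43. The call held without dyW3 (adjusted p = 0.00472) and was lost without dyW1 (0.0129), dyW2 (0.0189), WT2 (0.013) or WT4 (0.0128).

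Psma8 encodes the α subunit of the testis proteasome. It had 1, 5, 4 and 3 reads in WT1 to WT4, or 5.33, 13.5, 8.21 and 9.44 normalized counts, and 0, 1 and 3 reads in dyW, or 0, 0.126 and 1.47. The groups did not overlap, and the log2 fold change was −2.79 ± 0.68 (SE, adjusted p = 0.013, limma). Without dyW3 it was −3.19 and passed the call (adjusted p = 0.00948, limma), and without dyW1 or dyW2 the adjusted p was 0.0476 or 0.0606. It also passed the call without WT1 (adjusted p = 0.00906, limma), and its mean fell under the filter without WT2, WT3 or WT4. The 13 WT reads were 0.149 times the receptor level for all annotated exons and 1.13 times for the canonical transcript. On subtraction of that level the log2 fold change was 0.06. The 8 germ cell markers summed to 94.4 to 202 in WT and to 1.56, 64.2 and 246 in dyW1 to dyW3, and their part in Psma8 was not tested. The WT reads of these markers were themselves only 0.415 to 1.26 times the receptor level.

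Psmb8, Psmb9 and Psmb10 encode the subunits that replace Psmb5, Psmb6 and Psmb7 in the immunoproteasome, which immune cells and interferon-treated cells make. Psmb8 had 16, 32.4, 2.05 and 18.9 normalized counts in WT and 0.0974, 9.74 and 0.977 in dyW. WT3 lay within the dyW range, and the log2 fold change was −2.25 ± 1.11 (SE, adjusted p = 0.15, limma), and −3.21 to −1.56 when any 1 library was left out. Psmb9 had 37.3, 43.1, 10.3 and 6.29 in WT and 0, 16.9 and 18.1 in dyW, with a log2 fold change of −1.46 ± 1.23 (SE, adjusted p = 0.388, limma), −0.06 without dyW1 and −2.19 without dyW3. It overlaps Tap1 on the opposite strand by 743 bases, and the strand setting of the counting is not given in the sources used here. Psmb10 had 10.7, 18.9, 24.6 and 15.7 in WT and 0, 42.4 and 28.8 in dyW, so the other dyW libraries were above all WT libraries while dyW1 had no read. The dyW2 value rests on 335 reads, in a library where the receptor level was 0. Its log2 fold change was −0.70 ± 1.27 (SE) with dyW1 and 1.02 without it, and neither passed the test (adjusted p = 0.699 and 0.287, limma). Without dyW3 it was −1.43.

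The share of immunoproteasome reads among the 6 exchangeable catalytic genes varied widely within both genotypes. The receptor level gives 5.65, 22.2, 15.8 and 16.5 reads for the 3 genes in WT1 to WT4, against 12, 35, 18 and 13 counted. In dyW1 to dyW3 the level gives 0, 0 and 9.56 reads, against 1, 546 and 98 counted. By the mean over the receptor genes it would be 12.2, 24.9, 17.4 and 19 reads in WT and 18.2, 1.67 and 129 in dyW, so that only the counts of WT2, WT3 and dyW2 lie above it. The share was 50% of 24 reads in WT1 (95% Clopper-Pearson interval 29.1% to 70.9%), 28.9% of 121 in WT2 (21.0% to 37.9%), 2.50% of 720 in WT3 (1.49% to 3.92%) and 14.4% of 90 in WT4 (7.92% to 23.4%). In dyW1 it was 0.0337% of 2964 reads (0.00085% to 0.188%), in dyW2 2.67% of 20471 (2.45% to 2.90%) and in dyW3 11.1% of 879 (9.14% to 13.4%). The groups overlapped, and the intervals cover counting error only, since the libraries carry no molecular identifiers. The 10 immune cell markers summed to 139, 690, 478 and 318 in WT and to 145, 396 and 556 in dyW, in library order. Single markers differed: 4 of the 10 had a positive log2 fold change and 6 a negative one. Ptprc was at 58.6 to 120 in WT, at 0 in dyW1 and dyW2 and at 99.6 in dyW3, with WT reads at 1.03 times the receptor level. Fcer1g was at 0 to 51.3 in WT and at 28.3, 58.9 and 53.2 in dyW1 to dyW3. Cd68 was at 8.09 to 34.6 in WT and at 39.2, 31.4 and 32.7 in dyW1 to dyW3.

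The 6 ATPases, which unfold the protein, had a median log2 fold change of 0.81, with 5 positive and 0 called, and of 1.40 without dyW1, 0.20 without dyW2 and 0.86 without dyW3. Psmc5 had the largest, from 16, 64.7, 139 and 15.7 normalized counts in WT and 74.4, 754 and 130 in dyW. WT3 exceeded dyW1 and dyW3. With all libraries the log2 fold change was 2.28 ± 1.06 (SE, adjusted p = 0.129, limma), and it was 1.31 without dyW2, 2.97 without dyW1 and 2.57 without dyW3. Among the dyW libraries, 5 of the 6 ATPases were highest in dyW2, and 4 of these were lowest in dyW1. Psmc3 had 24.8 normalized counts in dyW1, 927 in dyW2 and 119 in dyW3. Psmc6 was the exception, highest in dyW3, with 324, 259 and 616, and its log2 fold change of 1.58 was 1.22 without dyW3.

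Non-ATPases form the base and lid of the regulatory particle. Of 11, 8 had a positive log2 fold change, with a median of 0.53, and 0 were called. The median was 0.74 without dyW1, −0.07 without dyW2 and 0.82 without dyW3. Psmd4, a ubiquitin receptor, had normalized counts of 176, 164, 148 and 91.3 in WT and 51.6, 486 and 84.0 in dyW. The WT values lay between the dyW extremes, with a log2 fold change of −0.13 ± 0.80 (SE, adjusted p = 0.917, limma), and 0.52 without dyW1, −1.08 without dyW2 and 0.18 without dyW3. Psmd14, the deubiquitinase of the lid, had 53.3, 70.1, 256 and 88.1 in WT and 33.1, 710 and 266 in dyW. The log2 fold change was 0.94 ± 1.04 (SE, adjusted p = 0.516, limma), 2.17 without dyW1, −0.02 without dyW2 and 0.68 without dyW3. Psmd12, a lid subunit, was the only constitutive subunit of 31 whose groups did not overlap. It had 21.3, 83.6, 146 and 62.9 in WT and 156, 418 and 252 in dyW, that is 78.4 ± 51.8 (SD, n = 4) and 275 ± 132 (SD, n = 3). The log2 fold change was 1.98 ± 0.75 (SE) with and without dyW3, the adjusted p was 0.0729 (limma), and the exact permutation p was 0.0571. Over all alternatives the adjusted p ran from 0.0134 with all libraries at the same total to 0.383 with quantile normalization, and it was 0.101 without dyW3.

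Some lid subunits were nearly missing from the library labelled dyW3. Psmd3 had 53.3, 48.5, 71.8 and 59.8 normalized counts in WT, 24.7 in dyW1 and 69.6 in dyW2, but 0.488 in dyW3, which is 1 read of 3663905. Its log2 fold change of −2.08 ± 1.20 (SE, adjusted p = 0.216, limma), the lowest among regulatory members, was −3.25 without dyW2 and −0.46 without dyW3. Psmd13 had 7 reads in dyW3, or 3.42 normalized counts, against 59.5 in dyW1, 403 in dyW2 and 26.7 to 240 in WT. In that library Psmc6 had 1261 reads and Psma6 660. Psmd13 was not among the genes chosen by rule and was singled out for this value. Drawn down to 470804 reads per library, the SD of log2 level per kb across the 31 subunits was 1.18, 0.83, 1.24 and 0.95 in WT1 to WT4 and 1.08, 1.32 and 1.67 in dyW1 to dyW3. The spread within the complex was widest in dyW3, and WT and dyW overlapped.

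Per kb of canonical transcript, the summed core members exceeded the summed regulatory members in 5 of 7 libraries. The regulatory sum also holds activators, assembly factors and Psmc3ip, and the core sum the tissue-restricted genes. The ratio of summed normalized counts per kb, core to regulatory, was 0.85, 1.29, 1.98 and 1.39 in WT1 to WT4 and 0.84, 1.37 and 1.45 in dyW1 to dyW3. The groups overlapped at 1.38 ± 0.47 (SD, n = 4) and 1.22 ± 0.33 (SD, n = 3), and this ratio does not depend on how libraries are scaled. For constitutive subunits alone it was 0.93, 1.45, 2.28 and 1.64 in WT and 1.09, 1.66 and 1.77 in dyW, so only WT1 was under 1. For all members without division by length it was 0.59, 0.98, 1.81 and 1.07 in WT and 0.59, 1.24 and 1.09 in dyW. WT1 and dyW1, the libraries with ratios under 1 per kb over all members, were the lowest of each genotype for the sums of myofiber, fibroblast, immune cell and erythroid markers (80.0 and 14.8 for the last, against 28728 to 291236 elsewhere), and their part was not tested. The 6 endothelial markers did not follow this order, with 533, 529, 351 and 620 in WT1 to WT4 and 1336, 702 and 574 in dyW1 to dyW3. Between genotypes, the median log2 fold change was 0.45 for core and 0.61 for regulatory members (0.28 and 0.82 without dyW3), a difference of −0.16. The difference was 0.34 without dyW1, 0.14 without WT3, 0.21 among genes with a mean of at least 50, 0.20 with quantile normalization and −0.54 without dyW3, so its sign was not stable.

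**Figure D4:**
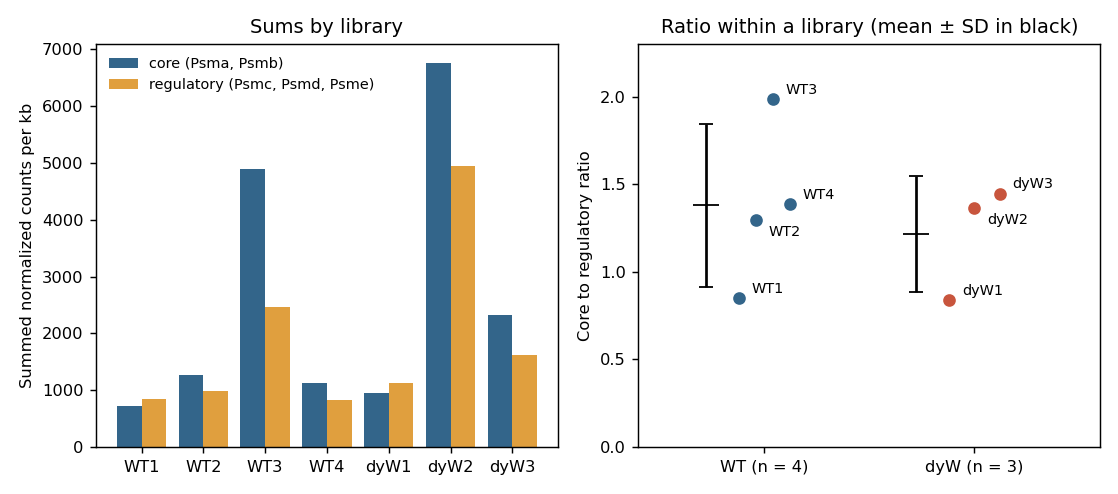
Left, summed normalized counts per kb of canonical transcript of core and regulatory members as bars for each library. Right, the core to regulatory ratio within each library as points with mean ± SD in black. The ratio runs from 0.85 to 1.98 in WT and from 0.84 to 1.45 in dyW, and the groups overlap.

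Assembly factors of the regulatory particle had log2 fold changes of opposite sign. Psmd10, also known as the oncoprotein gankyrin, had 16, 21.6, 67.7 and 3.15 normalized counts in WT and 108, 214 and 49.8 in dyW. WT3 exceeded dyW3. Its log2 fold change, 2.54 ± 1.0 (SE, adjusted p = 0.0818, limma), was the largest of all 49 members, and 3.07 with an adjusted p of 0.0453 without dyW3. Over all alternatives its adjusted p was 0.0313 to 0.279. Psmd9, by contrast, had 42.6, 56.6, 67.7 and 56.6 in WT and 22.6, 5.19 and 20.0 in dyW, without overlap. The fit gave a log2 fold change of −1.95 ± 0.70 (SE, adjusted p = 0.0635, limma), and −2.22 without dyW3 (adjusted p = 0.0348, limma). The WT reads of Psmd9 were 0.932 times the receptor level over all annotated exons and 4.58 times over the canonical transcript. Subtraction of that level, which takes no reads from dyW1 and dyW2, turned the log2 fold change to 2.56 (adjusted p = 0.39, limma). Psmd5 had a log2 fold change of −1.18, and of −0.07 without dyW3.

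The activators, which open the core without ubiquitin, had positive log2 fold changes with all libraries, 4 of 4, with a median of 1.32 and 0 called, but Psme1 turned to −0.16 without WT1. The median stayed between 1.10 and 1.36 when any 1 dyW library was left out. Psme4, a large single-chain cap of the core known from testis and from DNA repair, had 90.6, 91.7, 75.9 and 85.0 normalized counts in WT and 527, 155 and 362 in dyW. Every dyW library was above every WT library, as for 3.28% of all genes tested. The means were 85.8 ± 7.23 in WT (SD, n = 4) and 348 ± 186 in dyW (SD, n = 3), and the log2 fold change was 1.84 ± 0.57 (SE) with an adjusted p of 0.0383 (limma). Over all alternatives its adjusted p was 0.0174 to 0.374. It was 0.11 without dyW1, 0.0223 without dyW2, 0.071 without dyW3 and 0.0592 to 0.0915 without any 1 WT library. Psme4 was highest in dyW1, where 0 of the 31 constitutive subunits had their highest dyW value. Its WT reads were 1.95 times the receptor level over all annotated exons and 2.63 times over the canonical transcript. The log2 fold change of Psme4 was 2.85 after subtraction of that level.

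Psme3, the nuclear activator, had 16, 59.3, 53.3 and 53.5 in WT and 140, 88.5 and 110 in dyW. These groups did not overlap either, and the order of the dyW libraries was that of Psme4. The log2 fold change was 1.42 ± 0.66 (SE, adjusted p = 0.131, limma) 1.26 to 1.59 without any 1 dyW library and 0.99 without WT1. Psme1 and Psme2 encode the subunits of the interferon-induced activator and lie 2860 bases apart on chromosome 14. Psme1 had 5.33, 45.8, 47.2 and 62.9 in WT and 30.8, 45.3 and 69.8 in dyW. Psme2 had 53.3, 37.8, 189 and 53.5 in WT and 47.4, 507 and 163 in dyW. Both overlapped between groups, with log2 fold changes of 0.61 ± 0.91 and 1.22 ± 0.91 (SE, adjusted p = 0.638 and 0.333, limma), and 0.31 and 1.20 without dyW3. Psme2 was at 2.08 without dyW1 and 0.38 without dyW2.

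**Figure D5:**
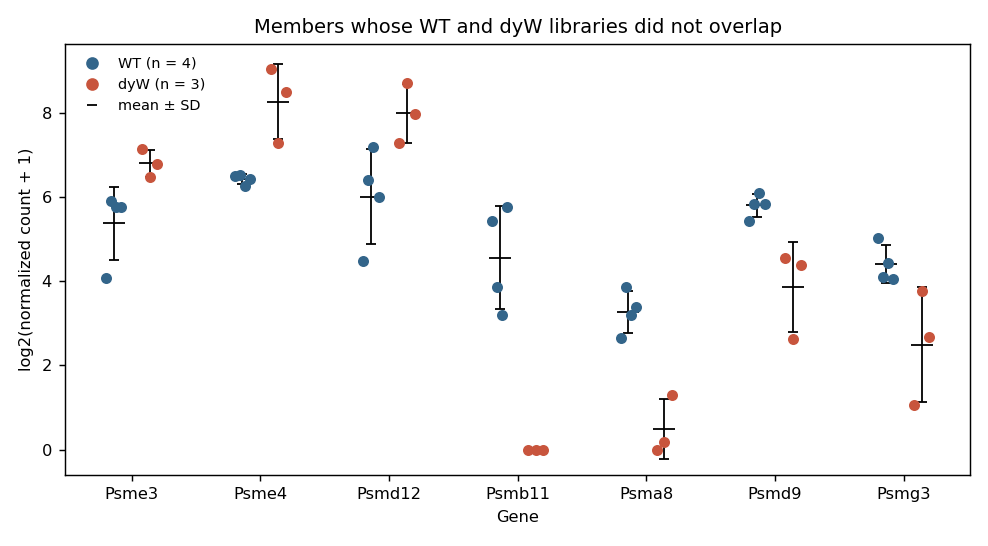
Log2(normalized count + 1) in each WT and dyW library (points), with mean ± SD in black, for the 7 tested members whose groups did not overlap. Psme3, Psme4 and Psmd12 were higher in every dyW library, and Psmb11, Psma8, Psmd9 and Psmg3 were lower in every dyW library.

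In all, 3 of 49 tested members were higher in every dyW library than in any WT library, where 3.28% of all genes were, and 4 of 49 were lower in every one, where 31.5% were. Over all annotated exons, the 4 lower members were all under 2 times the receptor level in WT, and so were Psme3 and Psme4 among the 3 higher ones. Over the canonical transcript, Psmb11 and Psma8 were at 1.19 and 1.13 times. Psmd9, Psmg3, Psme3 and Psme4 were at 4.58, 4.52, 2.31 and 2.63 times. Psmg3, a core assembly factor, had 15.7 to 32.0 normalized counts in WT and 1.07, 12.6 and 5.37 in dyW, with a log2 fold change of −1.91 ± 0.83 (SE, adjusted p = 0.106, limma), and −2.0 without dyW3 (adjusted p = 0.0901). It turned to 0.58 with quantile normalization and to 0.40 after subtraction of the receptor level. The other core assembly factors had log2 fold changes of 0.46 to 1.64, and 0 of them were called. Psmf1, the inhibitor of the core, had 0, 45.8, 32.8 and 47.2 in WT and 28.8, 91.7 and 13.7 in dyW. The groups overlapped, and the log2 fold change of 1.05 ± 1.43 (SE, adjusted p = 0.603, limma) was −0.30 without WT1 and 1.66 without dyW3. Psmc3ip, which is no subunit, had 5.33, 29.7, 18.5 and 18.9 in WT and 0.487, 168 and 0 in dyW. Its log2 fold change of −1.39 ± 1.68 (SE, adjusted p = 0.554, limma) was −3.76 without dyW2 (adjusted p = 0.0251, limma), the library above every WT library, −0.35 without dyW1 and −0.06 without dyW3.

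Proteasome genes are known to carry a binding element for Nfe2l1 and its relatives upstream of their start. RefSeq promoters (build GRCm38.p6) were given for 42 of the 50 members, and the 250 bases before each start were searched on both strands. The core of the Nfe2l1 element, TGACNNNGC, was found in 5 of 42 members (Psmb5, Psmb6, Psmc6, Psmd9 and Psmd12) and in 11.5% of 27025 genes. CCAAT was found in 15 members and in 37.5% of genes. CGGAAG, a core of ETS factor sites, was found in 20 members, or 47.6%, and in 15.3% of genes. Among its 20 holders are Psma6, Psmc6, Psmd4, Psmd6, Psmd12, Psmd14, Psme3, Psme4 and Psmb11. In Psmd12 that match lies past the annotated gene start, in the part not shown. Upstream sequences of 3 of the 5 members with the Nfe2l1 core follow, since these are the genes of the complex whose high dyW values are described above. Each is given on the plus strand of GRCm39, found there by an exact match, and cut where the annotated gene begins. Capitals mark TGACNNNGC or its reverse complement, and, in Psmc6, also CGGAAG. Psmb6 is at chr11:70415933-70416182, Psmc6 at chr14:45567031-45567214 and Psmd12 at chr11:107370104-107370245.
Psmb6: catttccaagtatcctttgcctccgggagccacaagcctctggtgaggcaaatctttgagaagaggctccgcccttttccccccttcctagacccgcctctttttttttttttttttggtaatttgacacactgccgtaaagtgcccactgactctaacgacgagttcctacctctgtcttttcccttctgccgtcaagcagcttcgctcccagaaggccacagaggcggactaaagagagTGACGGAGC
Psmc6: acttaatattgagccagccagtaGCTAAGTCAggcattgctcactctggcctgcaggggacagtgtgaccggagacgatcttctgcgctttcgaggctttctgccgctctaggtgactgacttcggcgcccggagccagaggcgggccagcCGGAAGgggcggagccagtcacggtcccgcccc
Psmd12: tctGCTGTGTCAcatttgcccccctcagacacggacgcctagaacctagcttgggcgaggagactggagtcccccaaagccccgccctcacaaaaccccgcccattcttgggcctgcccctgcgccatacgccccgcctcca
The match abuts the start in Psmb6 and lies at the far end of the window in Psmc6 and Psmd12. The 3 genes had log2 fold changes of 1.30, 1.58 and 1.98, while Psmb5 and Psmd9, which hold the same letters, had 0.04 and −1.95. A match is a description of the letters in the window.

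Outside the Psm names, 46 genes of the pathway from 6 lists were in the table and 45 were tested. Called were 0 in either direction by limma, against 18.7% lower and 0.0659% higher of all genes. At an unadjusted p under 0.05, 7 were lower and 3 were higher (41.5% and 2.81% of all genes), and voom called 1 lower (23.6%). With the adjusted p under 0.05 and the same fold threshold, 3 were lower (29.6% of all genes) and 0 higher (1.0%). The subunit gene Adrm1, a ubiquitin receptor, had 42.6, 40.5, 65.6 and 25.2 normalized counts in WT and 27.2, 109 and 0 in dyW, so it had no read in dyW3, where Psmd3 had 1. Its log2 fold change was −1.53, and 0.40 without dyW3. Pomp, the maturation factor of the core, had 101, 129, 445 and 81.8 in WT and 91.1, 1138 and 214 in dyW, with the same high libraries as the constitutive subunits. The log2 fold change was 0.92 ± 0.94 (SE, adjusted p = 0.48, limma), 1.73 without dyW1, −0.08 without dyW2 and 1.12 without dyW3. Nfe2l1 had 64.0, 62.0, 30.8 and 56.6 in WT and 118, 29.6 and 46.9 in dyW. Nfe2l1 was lowest in WT3 and dyW2, the libraries where the subunits were highest, and its log2 fold change was 0.09 ± 0.68 (SE, adjusted p = 0.929, limma), and −0.45 without dyW1, −0.15 without WT3, 0.53 without dyW2 and 0.20 without dyW3. The WT3 value rests on 15 reads. The WT reads of Nfe2l1 were 1.28 times the receptor level over all annotated exons and 2.20 times over the canonical transcript.

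Ubb, a ubiquitin gene, had 4281, 3007, 26609 and 1340 normalized counts in WT and 453, 8485 and 1112 in dyW, again with WT3 and dyW2 high. Its groups overlapped, with a log2 fold change of −1.51 ± 1.17 (SE, adjusted p = 0.35, limma), and −0.59 without dyW1, −2.70 without dyW2 and −1.24 without dyW3. Of the atrophy ligases, Fbxo32 had 21.3, 29.7, 4.10 and 44.0 in WT and 150, 0.126 and 0.488 in dyW, so it was highest in dyW1, which nearly lacked fiber markers. Trim63 had 21.3, 21.6, 10.3 and 31.5 in WT and 0, 0.253 and 18.1 in dyW. With all libraries neither passed the test, at −1.65 ± 1.69 and −2.85 ± 1.11 (SE, adjusted p = 0.48 and 0.0784, limma). Without dyW3, Trim63 was at −4.21 and was called (adjusted p = 0.00274, limma), and Fbxo32 was at −0.61. Without dyW1, Fbxo32 was at −3.94 (adjusted p = 0.0224, limma) and Trim63 at −2.08 (0.193). The WT reads of Fbxo32 and Trim63 were 0.503 and 1.23 times the receptor level, and after its subtraction the log2 fold changes were 2.47 and −0.33 (adjusted p = 0.445 and 0.943, limma).

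The pathway genes past an adjusted p under 0.05 and the fold threshold were Trim55, Tap1 and Nlrc5. Each was lower in every dyW library than in any WT library, as were 31.5% of all genes tested. Trim55, a ligase of the sarcomere, had 16, 40.5, 26.7 and 15.7 in WT and 0, 0.253 and 10.7 in dyW, with a log2 fold change of −3.29 ± 0.99 (SE, adjusted p = 0.0339, limma). Without dyW3 it was −4.42 and was called (adjusted p = 0.00242, limma), and without dyW1 or dyW2 the adjusted p was 0.0865 or 0.0964, and without any 1 WT library it was 0.0688 to 0.117. Tap1, which carries peptides made by the proteasome into the endoplasmic reticulum, had 26.7, 27.0, 12.3 and 34.6 in WT and 9.16, 0 and 0 in dyW. Nlrc5, the activator of class I genes, had 48.0, 91.7, 24.6 and 85.0 in WT and 14.6, 0 and 0 in dyW. Their log2 fold changes were −3.51 ± 0.98 and −4.49 ± 1.10 (SE, adjusted p = 0.0246 and 0.0136, limma), and −2.95 and −3.83 without dyW3 (0.0372 and 0.0232). Both were called without dyW1 (adjusted p = 0.00841 and 0.00818, limma), and Tap1 did not pass without dyW2 (0.0744). Over all alternatives the adjusted p was 0.00841 to 0.876 for Tap1 and 0.00527 to 0.447 for Nlrc5. Without WT2 or WT4 it was 0.0821 or 0.088 for Tap1 and 0.0568 or 0.0563 for Nlrc5, and Tap1 also did not pass without WT1 (0.0661). The WT reads of Trim55, Tap1 and Nlrc5 were 0.518, 0.792 and 1.44 times the receptor level. After subtraction of that level the log2 fold changes were 1.0, 0.39 and −2.35. Nedd4, another ubiquitin ligase, passed an adjusted p of 0.05 but not the fold threshold, and was singled out after its values were seen. It had 768, 461, 720 and 434 normalized counts in WT and 1945, 1494 and 1135 in dyW, every dyW library above every WT library. Its log2 fold change was 1.37 ± 0.43 (SE, adjusted p = 0.0397, limma), and the adjusted p was 0.128, 0.102 and 0.0573 without dyW1, dyW2 and dyW3. The WT reads were 7.96 times the receptor level.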

How the data were processed

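RNA of muscle fibers was sequenced by the authors from 4 WT and 3 dyW fetuses, 1 library each. Per the sources, reads were trimmed with cutadapt, aligned to GRCm39 with STAR and counted per gene, and counts were divided by 1 size factor per library. The authors deposited the resulting normalized counts, with decimal commas, for 31531 genes, and a second table of their own fold changes and p-values, which was not used. Tool versions, annotation release and strand setting are not given in the sources used here.

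Each library's values were whole multiples of 1 step (tolerance 0.01 reads), which gave the reads per gene. limma 3.58.1 (R 4.3.3; lmFit, eBayes with trend) was run on log2(normalized count + 1) for genes with a mean of at least 5. Exact two-sided permutation tests of single genes ran over the 35 splits of 7 libraries. Lengths and coordinates came from GENCODE mouse release 39 (GRCm39), with the canonical transcript for levels per kb. The fit was also run on simulated data, and the outcome is not used as support for the results here. Python 3.11.15, pandas 2.3.3 and scipy 1.17.1 were used. A count of 0 allows up to 3 reads.

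The members, gene lists and thresholds were chosen with earlier results of these data known. Values in every library are given for members past an adjusted p of 0.05 and an absolute log2 fold change of 1.5, the 3 lowest and 3 highest of core and of regulatory members, the catalytic and tissue-restricted subunits, activators, Psmd4, Psmd14 and Psmf1, and likewise for the pathway genes past that threshold and Nfe2l1, Pomp, Adrm1, Ubb, Fbxo32 and Trim63. One further gene of the rule is not reported here. Alternatives were other pseudocounts (0.1 and 10), filters (none, or a mean of 50), scalings, reads drawn to equal depth, a replicate block, each library left out, and other thresholds. Voom, subtraction of the receptor level, and other lengths or constitutive subunits alone for the core ratio were added after seeing the data. Of the 50 members, 34 overlap another annotated gene, 28 on the opposite strand, and their counts are uncertain to that extent.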

Additional observations from a re-analysis of the deposited data

Results flagged for a closer look

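Of 36 values checked among the 4 WT libraries, 9 had a single library far from the other WT libraries. The values are not independent, since the sums contain flagged genes. The count of 9 can therefore not be set against the rate of about 1 in 20 that holds for 1 value. The dyW group of 3 was not checked. In 8 of the 9 the library was WT3 and stood high. These were the normalized counts of Psmb5 (117), Psmb6 (1227), Psme2 (189), Pomp (445) and Ubb (26609), the sum over the constitutive subunits (12121), and the sums per kb of core (4891) and regulatory (2466) members. In the remaining one, Psme3 stood low in WT1, at 16 normalized counts, which is 3 reads. WT3 also had the highest sums of myofiber and fibroblast markers among WT, and WT1 was the shallowest library. The part of either in these values was not tested.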

How the results depend on the processing

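The count of members called lower, 1, became 0 with a pseudocount of 10, a mean of at least 50, quantile normalization, the same total, thinned reads, subtraction of the receptor level or the replicate block, 2 at an adjusted p under 0.05 with or without the fold threshold, and 0 to 2 when any 1 library was left out. Called higher went from 0 to 1 at an adjusted p under 0.05 with or without the fold threshold. Pathway genes called lower went from 0 to 3 at an adjusted p under 0.05 with or without the fold threshold, 1 with voom, and 0 to 3 when any 1 library was left out. Pathway genes called higher went to 1 at an adjusted p under 0.05 without the fold threshold and with voom on the same total. The members' median relative to all genes, 2.59, was 3.86 and 1.27 with pseudocounts of 0.1 and 10, 0.66 with a mean of at least 50, 0.53 with quantile normalization, 0.88 after subtraction of the receptor level and 1.85 to 3.31 when any 1 library was left out. Core minus regulatory, −0.16, was 0.21 with a mean of at least 50, 0.20 with quantile normalization, −0.66 after subtraction of the receptor level and −0.54 to 0.34 when any 1 library was left out. The difference in the log2 ratio of sums, −0.16, was −0.37 to 0.09 when any 1 library was left out. The causes of these changes were not tested, apart from the smaller number of genes or samples that some settings keep.

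Of 556 recomputed log2 fold changes of 32 named genes, 498 kept their sign and side of the threshold, 10 lost and 7 gained the call, and 41 changed sign. With quantile normalization the log2 fold change became 0.92 for Fbxo32, 0.75 for Psma8, 1.32 for Psmb10, 0.85 for Psmb8, 0.40 for Psmb9, 1.03 for Psmc3ip and 0.22 for Trim63. Subtraction of the receptor level takes no reads from dyW1 and dyW2 and so tends to raise log2 fold changes. The signs after it therefore show no direction. With it the log2 fold change became 0.53 for Adrm1, 2.47 for Fbxo32, 0.057 for Psma8, 0.28 for Psmb10, 0.53 for Psmb9, 0.60 for Psmc3ip, 0.18 for Psmd4, 2.56 for Psmd9, 0.39 for Tap1 and 1.0 for Trim55. On the same total it became 0.024 for Psmb10 and 1.01 for Psmd4, and with voom on the same total 0.59 for Adrm1 and 1.35 for Psmd4. With a pseudocount of 10 it became 0.015 for Psmb10 and −0.0044 for Psmb5, with thinned reads −0.61 for Nfe2l1 and −0.21 for Psmb5, and with voom −0.34 for Psmb5. When any 1 library was left out, the range was −2.99 to 0.40 for Adrm1, −0.45 to 0.53 for Nfe2l1, −0.081 to 1.73 for Pomp, −1.70 to 1.02 for Psmb10, −0.24 to 0.56 for Psmb5, −0.023 to 2.17 for Psmd14, −1.08 to 0.52 for Psmd4, −0.16 to 0.96 for Psme1 and −0.30 to 1.66 for Psmf1.

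Replicate numbers did not pair the libraries: same-numbered WT and dyW libraries correlated at 0.147, −0.049 and −0.088 in their deviations. The highest correlation of any WT and dyW library was 0.225, between WT3 and dyW2. A replicate block left 0 members called lower and a log2 fold change of −0.16 for Psmb5. The planned negative binomial count models and trimmed-mean scaling were not run, and voom on the recovered reads stood in for them. Depth limits the WT values more than the dyW values: 1 read in WT1 is 5.33 normalized counts, and members near the receptor level rest on few reads.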
